A study of Mus musculus with 6 samples.

Results

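Aminoacyl-tRNA synthetases were taken from the gene count table of an RNA-seq experiment on N9 microglia as the protein-coding genes whose description contains the words tRNA synthetase. The rule found 42 of the 54532 genes in the table, and 41 are described. Of these, 21 encode cytosolic charging enzymes or their subunits, 16 encode mitochondrial charging enzymes, and 4 charge no tRNA (Aimp1, Aimp2, Prorsd1 and Aarsd1). N9 is an immortalized microglial line from mouse brain, so all 6 libraries come from 1 cell line. The control group was 3 libraries of untreated cells, and the LPS group was 3 libraries of cells given lipopolysaccharide (LPS), an outer membrane component of gram-negative bacteria, at 1 µg/ml for 6 h. The labels do not say that the replicates were separate cultures, so p-values measure the spread between these libraries, which may be technical.

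Each aminoacyl-tRNA synthetase joins an amino acid to the tRNAs that carry its anticodons, which is the step that makes the genetic code hold during translation. Cytosol and mitochondria are served by separate sets of enzymes, and the mitochondrial set is also encoded in the nucleus and imported. Glycine and lysine are exceptions, since Gars and Kars each supply both compartments from a single gene, and mitochondrial glutaminyl-tRNA is made by amidation of a glutamyl intermediate. In mammalian cells several cytosolic enzymes are held in a multi-tRNA synthetase complex with the scaffold proteins AIMP1, AIMP2 and EEF1E1. Many cytosolic synthetase genes are known targets of ATF4, the transcription factor of the amino acid response, and the tryptophanyl enzyme gene Wars is known for its induction by interferon gamma.

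Total counts ran from 16363767 to 17956772 per library, and 3 counts correspond to between 0.161 and 0.19 CPM, the count divided by the scaled library total and multiplied by 1000000. All 9 microglia and macrophage markers examined exceeded 3 counts in at least 1 library, with Csf1r between 7140 and 8027 counts and P2ry12 between 3 and 6. Their sum was between 1540 and 1610 CPM in control and between 1800 and 1880 CPM in LPS libraries, with Spi1 at 4804 to 5242 and 6705 to 7114 counts and Itgam at 241 to 272 and 173 to 215. Summed endothelial markers were between 0.283 and 0.86 CPM in control and between 1.65 and 2.32 CPM in LPS libraries. Summed astrocyte markers were between 27.2 and 29.2 CPM in control and between 21.3 and 24.9 CPM in LPS libraries, nearly all of it Aldh1l1 (350 to 534 counts). Summed oligodendrocyte markers were between 33.4 and 40.0 CPM in control and between 28.2 and 29.5 CPM in LPS libraries, nearly all of it Mbp (457 to 672 counts). Summed neuronal markers were between 3.79 and 4.59 CPM in control and between 11.1 and 14.5 CPM in LPS libraries, nearly all of it Tubb3 (58 to 231 counts). No other astrocyte, oligodendrocyte, neuronal or endothelial marker examined exceeded 21 counts, with Aqp4, Rbfox3, Mog and Cldn5 at 3 counts or fewer in every library. The 8 hepatocyte markers summed to 13.8 and 23.2 CPM in control replicates 2 and 3, and to between 0.127 and 0.73 CPM in the other 4 libraries. A fit without both of these libraries has 1 control library against 3 LPS libraries and takes its spread from the LPS group, so its values are given as descriptions, and the part of the hepatocyte or any other of these marker transcripts in the differences was not tested. The scaling factors are those of the trimmed mean of M-values (TMM). They were 1.03 to 1.04 in control and 0.965 to 0.970 in LPS libraries, so that log2 fold changes computed on library totals lie lower by 0.098 for the median gene. This shift is as large as many of the differences among synthetases. Values on library totals are therefore given beside many of the main ones, and otherwise as counts of calls per list.

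Synthetase mRNAs changed little after 6 h of LPS. Of the 41 genes, 40 were deep enough to be tested, and none reached a log2 fold change beyond 1.5 in either direction together with an adjusted p below 0.05 (called a differentially expressed gene, DEG), as 2.65% of the 12296 tested genes did. By the adjusted p alone, 7 members were higher and 3 were lower with LPS in edgeR's quasi-likelihood test, where 18.7% of all tested genes were higher and 15.7% lower. On library totals the balance turned, with 1 member called higher and 12 lower, where 12.4% and 27.2% of all tested genes were. The called share was 25.0% of members, beside 34.3% of all tested genes. Every LPS library lay above every control library in 12 members and below in 5, while 23.8% and 21.5% of all tested genes had such groups, and in 23 members the groups overlapped. Among the 37 charging enzymes, log2 fold changes ran from -0.33 for Tarsl2 to 0.25 for Lars2, and the outermost limits of their 95% intervals were -0.50 and 0.40. The counts were deep for this family, with a median standard error (SE) of 0.050 for the members on the log2 scale, beside 0.082 for all tested genes.

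**Figure D1:**
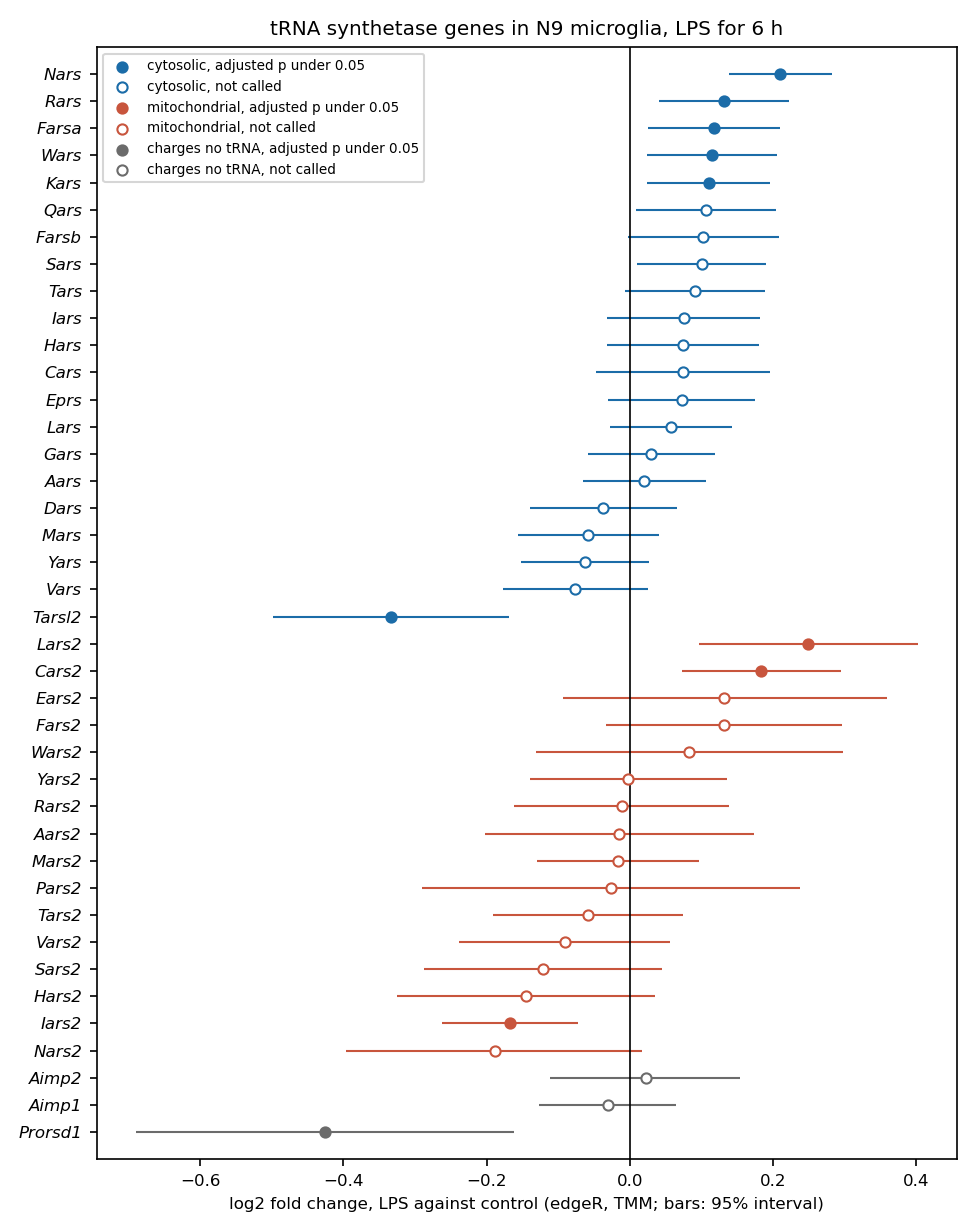
Log2 fold change of each tested synthetase gene, LPS against control, with its 95% interval, grouped into cytosolic, mitochondrial and non-charging members. Filled circles are the 10 called genes, and the charging enzymes lie between -0.33 and 0.25.

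The charging enzymes whose difference held best were Nars, higher with LPS, and Tarsl2 and Iars2, both lower. Nars and Iars2 kept their direction and call in all 15 other analyses run, including the one on library totals, and Tarsl2 in 14 of them, the exception being the fit with 1 control library. Of the 5 cytosolic genes called higher, Nars was the only one called in each of the 6 fits that left out 1 library, in which between 1 and 2 cytosolic genes were called higher (14.7% to 17.2% of all tested genes). Without control replicates 2 and 3, which leaves 1 control library, the log2 fold changes were 0.19 for Nars, -0.20 for Iars2 and -0.29 for Tarsl2, in the same directions.

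Nars (ENSMUSG00000024587, chromosome 18, 64499665 to 64516557, minus strand of mm10) encodes the asparaginyl enzyme and had the most counts of the family. Its level was 591, 574 and 585 CPM in control replicates 1, 2 and 3, and 681, 673 and 672 CPM in LPS replicates 1, 2 and 3. The LPS libraries were all above the control libraries, by more than the spread within either group. The change was 15.7% on the fitted scale, or 0.21 ± 0.034 on the log2 scale (± SE; edgeR adjusted p = 1.87e-04), and 0.11 on library totals (edgeR adjusted p = 0.0149).

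Tarsl2 (ENSMUSG00000030515, chromosome 7, 65644898 to 65692091, plus strand) encodes a threonyl enzyme that resembles the cytosolic enzyme encoded by Tars. Its level was 29.5, 32.2 and 29.2 CPM in the control libraries and 24.9, 23.5 and 23.7 CPM in the LPS libraries. All LPS libraries were below all control libraries, a difference of -0.33 ± 0.077 on the log2 scale (edgeR adjusted p = 0.00346), and of -0.43 on library totals (edgeR adjusted p = 4.26e-04). Tars itself, the main threonyl gene, was at 202, 189.5 and 193 CPM in control and 215, 206 and 201 CPM with LPS, and was not called (log2 fold change 0.09, edgeR adjusted p = 0.147). The log2 ratio of Tars to Tarsl2 in CPM averaged 2.67 in control and 3.08 in LPS libraries, and the fitted log2 fold changes differed by 0.42 (95% interval 0.23 to 0.61). Over 1.78% of its exon bases, Tarsl2 overlaps Tm2d3 on the same strand, and Tm2d3 was not called (log2 fold change -0.18, edgeR adjusted p = 0.141).

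The 8 enzymes of the multi-tRNA synthetase complex moved within a narrow band. Their log2 fold changes ran from -0.06 to 0.13 with a median of 0.07, the same median to 2 decimals as that of the 13 cytosolic genes outside the complex, which ran from -0.33 to 0.21. On library totals both medians were -0.02, and Dars (-0.14, edgeR adjusted p = 0.0353) and Mars (-0.16, edgeR adjusted p = 0.0144) of the complex were called lower. Rars, the arginyl enzyme, was at 272, 259 and 264 CPM in control and 298, 282 and 290.2 CPM with LPS, a difference of 0.13 ± 0.042 on the log2 scale (edgeR adjusted p = 0.0253). Its call held without LPS replicate 2 and without control replicate 1, but not without LPS replicate 1 (edgeR adjusted p = 0.0834), LPS replicate 3 (0.0626), control replicate 2 (0.106) or control replicate 3 (0.107). Kars, the lysyl enzyme of both compartments, was at 246, 252 and 247 CPM in control and 264, 271 and 269 CPM with LPS, and just passed the test (log2 fold change 0.11, edgeR adjusted p = 0.0477). The call was lost whichever library was left out (edgeR adjusted p from 0.0584 to 0.177), and was not made by DESeq2 (adjusted p = 0.0526), with RLE size factors or without the filter on low counts. In both genes the LPS libraries were all above the control libraries, but on library totals the log2 fold changes were 0.03 and 0.01 and neither was called. Eprs, a fusion that charges both glutamate and proline, was at 419, 475 and 444 CPM in control and 450, 483 and 475 CPM with LPS, so that the groups overlapped (log2 fold change 0.07, edgeR adjusted p = 0.272). The other complex enzymes were not called. They were Qars at a log2 fold change of 0.11, Iars at 0.08, Lars at 0.06, Dars at -0.04 and Mars at -0.06. On library totals Qars was at 0.007, Iars at -0.023 and Lars at -0.041.

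Of the cytosolic enzymes outside the complex, Wars and Farsa joined Nars among the genes called higher, both close to the threshold. Wars was at 162, 163 and 166 CPM in control and 180.4, 174 and 177 CPM with LPS, without overlap between the groups. Its change was 8.26% (log2 fold change 0.11 ± 0.042, edgeR adjusted p = 0.0488), and it was called in none of the 6 fits that left out 1 library, nor by DESeq2 (adjusted p = 0.0849). Farsa, the alpha subunit of the phenylalanyl enzyme, was at 138, 134 and 132 CPM in control and 148, 147 and 143 CPM with LPS (log2 fold change 0.12, edgeR adjusted p = 0.0482; DESeq2 adjusted p = 0.102) and its call too was lost whichever library was left out (edgeR adjusted p from 0.0553 to 0.202). Its partner Farsb, the beta subunit, had a log2 fold change of 0.10 and missed the threshold (edgeR adjusted p = 0.126). The alpha to beta log2 ratio of CPM averaged -0.38 in control and -0.36 in LPS libraries, and the fitted log2 fold changes of the subunits differed by 0.015 (95% interval -0.12 to 0.16). On library totals, Wars and Farsa were at 0.02 each on the log2 scale and Farsb at 0.004, and none of them was called.

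The remaining cytosolic genes did not pass the test, and their values lay on both sides of 0. Gars, the glycyl enzyme of both compartments, was at 422, 438 and 435 CPM in control and 461, 439 and 423 CPM with LPS (log2 fold change 0.03, edgeR adjusted p = 0.627). The seryl gene Sars was at a log2 fold change of 0.10 (0.002 on library totals). The histidyl and cysteinyl genes Hars and Cars were at 0.07 each, and the alanyl gene Aars was at 0.02. The tyrosyl gene Yars and the valyl gene Vars were at -0.06 and -0.08, and both were called lower on library totals (edgeR adjusted p = 0.00638 and 0.00926). By structural class of the catalytic domain, class I genes had a median of 0.07 (9 genes) and class II genes of 0.09 (11 genes), with Eprs, which spans both classes, left out. The cytosolic list held 5 genes called higher and 1 called lower of 21, where 18.7% and 15.7% of all tested genes were, and with DESeq2 it held 2 and 1, where 14.2% and 11.6% were. Over this list, 16 of 21 fitted values were above 0 and the median was 0.07, beside 0.004 for all tested genes, but on library totals the median was -0.02, beside -0.095 for all tested genes, and the list held 1 gene called higher (12.4% of all tested genes) and 5 called lower (27.2% of all tested genes).

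**Figure D2:**
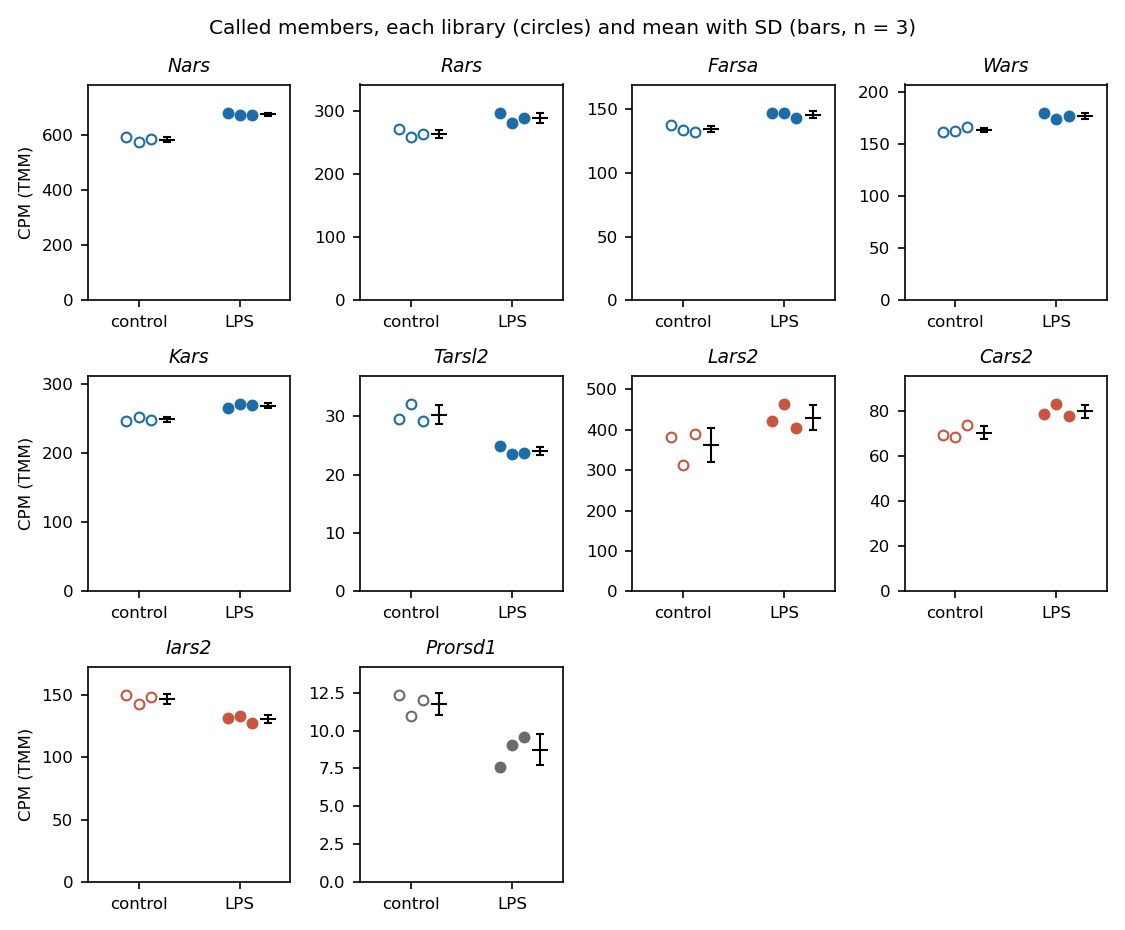
CPM of the 10 called members in each library (open circles control, filled circles LPS), with the group mean and SD (bars, n = 3) and axes from 0. The Tarsl2 and Iars2 libraries fell with LPS and those of Nars rose, each without overlap between groups, and Lars2 has control replicate 2 apart at 313 CPM.

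The promoters of 4 cytosolic synthetases contained a match to CARE, the C/EBP-ATF response element through which ATF4 acts on amino acid response genes, searched as TGATGCAA on both strands. They are shown because this subset has the sequence in common. None of the 4 genes was called higher with LPS, where 18.7% of all tested genes were, which for 4 genes is not a result about the subset. RefSeq promoter sequences of build GRCm38.p6, from 250 bases before to 50 bases after a start site, matched 14 of the 21 cytosolic and 14 of the 16 mitochondrial genes. The promoters of Cars, Hars, Lars, Nars, Rars, Vars, Wars, Hars2 and Pars2 were not searched, and these include 3 of the 5 cytosolic genes called higher. Of the promoters searched, 4 cytosolic ones (28.6%) and 0 mitochondrial ones held the match, against 0.895% of all 32851 promoters of this length. The cytosolic Tarsl2 promoter, which had no match, is printed beside that of Tars. Capitals mark the match (in Aars, Iars and Tars on the opposite strand, so that its reverse complement is printed), and sequences run 5′ to 3′ on the strand of the gene, from chr8:111033592-111033891 (plus) for Aars, chr13:49681880-49682179 (plus) for Iars, chr15:11399609-11399908 (minus) for Tars, chr7:65644648-65644947 (plus) for Tarsl2 and chr4:129189653-129189952 (plus) for Yars.
Aars: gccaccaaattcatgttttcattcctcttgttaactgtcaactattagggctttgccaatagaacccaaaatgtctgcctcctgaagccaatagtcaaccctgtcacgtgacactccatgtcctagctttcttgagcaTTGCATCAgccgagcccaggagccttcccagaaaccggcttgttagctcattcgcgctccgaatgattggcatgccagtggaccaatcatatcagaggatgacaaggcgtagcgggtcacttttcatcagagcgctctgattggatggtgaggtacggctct
Iars: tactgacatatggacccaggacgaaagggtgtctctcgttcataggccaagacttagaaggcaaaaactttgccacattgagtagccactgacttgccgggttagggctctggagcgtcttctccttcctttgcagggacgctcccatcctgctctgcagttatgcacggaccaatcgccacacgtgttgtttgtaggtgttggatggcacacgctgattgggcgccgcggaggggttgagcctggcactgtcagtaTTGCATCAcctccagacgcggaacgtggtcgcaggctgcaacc
Tars: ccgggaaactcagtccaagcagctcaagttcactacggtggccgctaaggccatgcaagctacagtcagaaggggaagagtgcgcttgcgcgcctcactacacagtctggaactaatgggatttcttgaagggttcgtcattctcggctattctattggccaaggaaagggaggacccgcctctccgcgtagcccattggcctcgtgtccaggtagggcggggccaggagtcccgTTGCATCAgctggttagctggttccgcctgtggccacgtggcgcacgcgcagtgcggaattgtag
Tarsl2: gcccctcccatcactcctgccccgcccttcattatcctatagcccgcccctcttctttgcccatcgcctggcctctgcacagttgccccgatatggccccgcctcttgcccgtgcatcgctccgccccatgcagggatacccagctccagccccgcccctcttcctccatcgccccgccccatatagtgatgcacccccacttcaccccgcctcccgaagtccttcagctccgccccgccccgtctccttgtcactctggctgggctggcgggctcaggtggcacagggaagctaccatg
Yars: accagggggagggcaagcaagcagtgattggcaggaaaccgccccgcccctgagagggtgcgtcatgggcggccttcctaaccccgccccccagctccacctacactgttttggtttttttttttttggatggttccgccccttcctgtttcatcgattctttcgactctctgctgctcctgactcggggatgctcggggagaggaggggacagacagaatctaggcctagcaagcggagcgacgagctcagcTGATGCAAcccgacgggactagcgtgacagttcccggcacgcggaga

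The first base of the match lay 112 bases before the start site in Aars and 15 bases before it in Tars, whereas those of Iars and Yars lay just after it. Log2 fold changes of the 4 genes with a match ran from -0.06 to 0.09 with a median of 0.05, and their 95% intervals stayed between -0.15 and 0.19. On library totals all 4 were below 0, from -0.16 to -0.01 with a median of -0.05, and Yars was called lower (-0.16, edgeR adjusted p = 0.00638). For Aars the groups overlapped, with 265, 265 and 268 CPM in control and 265, 272 and 273 CPM with LPS. For Yars the LPS libraries, at 194, 187 and 186 CPM, were all below the control libraries at 196, 198 and 199 CPM, but the difference did not pass the test (edgeR adjusted p = 0.279). The core of the interferon-stimulated response element, searched on both strands as GAAA, any 2 bases and GAAA again, was found in 1 cytosolic promoter (Qars) and 0 mitochondrial promoters, against 3.44% of all promoters. The interferon gamma activated sequence, TTCNNNGAA on both strands, was found in the promoters of Aars, Kars and Nars2, against 8.3% of all promoters, and the NF-kappa B sequence, searched on both strands as GGGA, any base and TTTCC, in 0 of the cytosolic and 0 of the mitochondrial promoters, against 0.411%. These matches are descriptions of the letters in these windows.

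Among the 16 mitochondrial enzymes, 1 was lower and 2 were higher with LPS (15.7% and 18.7% of all tested genes), and the median log2 fold change was -0.02, with a sign that turned when LPS replicate 2 was left out (0.002). Iars2 (ENSMUSG00000026618, chromosome 1, 185284726 to 185329396, minus strand), the mitochondrial isoleucyl enzyme, was lower in every LPS library than in every control library. It was at 150.3, 143 and 148 CPM in control and 132, 133 and 128 CPM with LPS, a difference of -0.17 ± 0.045 on the log2 scale (edgeR adjusted p = 0.00894). Leaving out each library in turn gave log2 fold changes from -0.20 to -0.15, and on library totals the value was -0.27 (edgeR adjusted p = 2.38e-04). Of its exon bases, 22.9% overlap Rab3gap2 on the opposite strand, and whether the counting used strand is not given in the sources used here, so their reads cannot be told apart with certainty. Rab3gap2 itself was at a log2 fold change of -0.04 (edgeR adjusted p = 0.511).

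Lars2 and Cars2, the mitochondrial leucyl and cysteinyl enzymes, were the mitochondrial genes called higher, and both calls depended on single libraries. Lars2 was at 382, 313 and 389 CPM in control and 421, 464 and 403 CPM with LPS, a difference of 0.25 ± 0.072 on the log2 scale (edgeR adjusted p = 0.0142). Without control replicate 2, its lowest library, the value was 0.15 (edgeR adjusted p = 0.0588), without LPS replicate 2 it was 0.19 (edgeR adjusted p = 0.0927), and DESeq2 did not call it (adjusted p = 0.0995). The coefficient of variation of Lars2 among control libraries was 11.6%, where 279 genes of similar mean count had a median of 2.98% and 11 of them a higher value. Cars2 was at 69.1, 68.2 and 73.5 CPM in control and 78.6, 83.1 and 77.7 CPM with LPS, without overlap (log2 fold change 0.18 ± 0.052, edgeR adjusted p = 0.0127). Cars2 was not called without control replicate 2 (0.16, edgeR adjusted p = 0.0584) or without LPS replicate 2 (0.15, edgeR adjusted p = 0.0729). On library totals neither gene was called, at 0.15 for Lars2 and 0.08 for Cars2. With control replicate 1 as the only control library, the values were 0.17 and 0.21.

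The other 13 mitochondrial genes did not pass the test, and with fewer counts their intervals were wider, with standard errors up to 0.12. The asparaginyl gene Nars2 was at 18.9, 20.8 and 20.2 CPM in control and 19.5, 16.8 and 16.2 CPM with LPS (log2 fold change -0.19, 95% interval -0.40 to 0.02). Hars2, Sars2, Vars2 and Tars2, for histidine, serine, valine and threonine, were at -0.14, -0.12, -0.09 and -0.06. Values for the alanyl, arginyl, methionyl, prolyl and tyrosyl genes (Aars2, Rars2, Mars2, Pars2 and Yars2) lay between -0.03 and 0. The phenylalanyl, glutamyl and tryptophanyl genes Fars2, Ears2 and Wars2 were at 0.13, 0.13 and 0.08, and on library totals at 0.033, 0.034 and -0.015. On library totals the list held 0 genes called higher and 5 called lower by edgeR, with a median of -0.11, where 12.4% and 27.2% of all tested genes were called and their median was -0.095. Besides Iars2, those called lower were Nars2 (-0.29, edgeR adjusted p = 0.0281) and Hars2 (-0.24, edgeR adjusted p = 0.0341). Sars2 (-0.22, edgeR adjusted p = 0.0361) and Vars2 (-0.19, edgeR adjusted p = 0.0413) were also called lower. By structural class, the 7 class II genes had 1 value above 0 and a median of -0.06, and the 9 class I genes a median of -0.002. Hars and Hars2 lie head to head with 195 shared exon bases on opposite strands, so their reads can overlap there.

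Because a ratio between genes within a library does not depend on the scaling of that library, cytosolic and mitochondrial enzymes were also compared for each amino acid. In 17 comparisons (Eprs and Fars2 each enter a pair of them), the log2 ratio of the cytosolic to the mitochondrial gene was higher in every LPS library than in every control library for 6 (asparagine, isoleucine, histidine, serine, threonine and arginine), lower in every LPS library for 0, and overlapped for 11. A share of 45.3% of all tested genes had groups without overlap in their own levels. With 3 libraries against 3, the two-sided exact permutation test cannot go below p = 0.1, and the smallest value adjusted over the 17 comparisons was 0.283.

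The asparagine ratio moved most. The log2 ratio of Nars to Nars2 was 4.93, 4.75 and 4.82 in control and 5.09, 5.28 and 5.33 in LPS libraries, and the fitted log2 fold changes of the pair differed by 0.40 (95% interval 0.18 to 0.62). For isoleucine, the log2 ratio of Iars to Iars2 was 0.49, 0.75 and 0.62 in control and 0.83, 0.85 and 0.90 with LPS, a difference of 0.24 (95% interval 0.10 to 0.39). For histidine, the log2 ratio of Hars to Hars2 was 2.45, 2.55 and 2.37 in control and 2.63, 2.80 and 2.59 with LPS, a difference of 0.22 (95% interval 0.01 to 0.43). In all 3 pairs the groups did not overlap. In each the fitted cytosolic value was above 0 and the mitochondrial value below 0, but on library totals the cytosolic isoleucyl and histidyl values were -0.02 as well.

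The other 3 ratios without overlap differed by 0.22 for serine (95% interval 0.03 to 0.41), 0.15 for threonine (-0.02 to 0.31) and 0.14 for arginine (-0.03 to 0.32). The mean ratio was higher with LPS in 10 of the 17 comparisons, with a median shift of 0.03. Of those with a lower mean, leucine moved most, with log2 ratios of Lars to Lars2 of -0.06, 0.27 and -0.04 in control and -0.14, -0.28 and 0.00 with LPS, so that the groups overlapped, and a difference of -0.19 (95% interval -0.37 to -0.02). For tryptophan the ratio of Wars to Wars2 overlapped between groups, with a difference of 0.03 (95% interval -0.20 to 0.26). For valine, with 3.19, 3.18 and 3.18 in control and 3.17, 3.19 and 3.24 with LPS, the difference was 0.01 (95% interval -0.16 to 0.19).

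**Figure D3:**
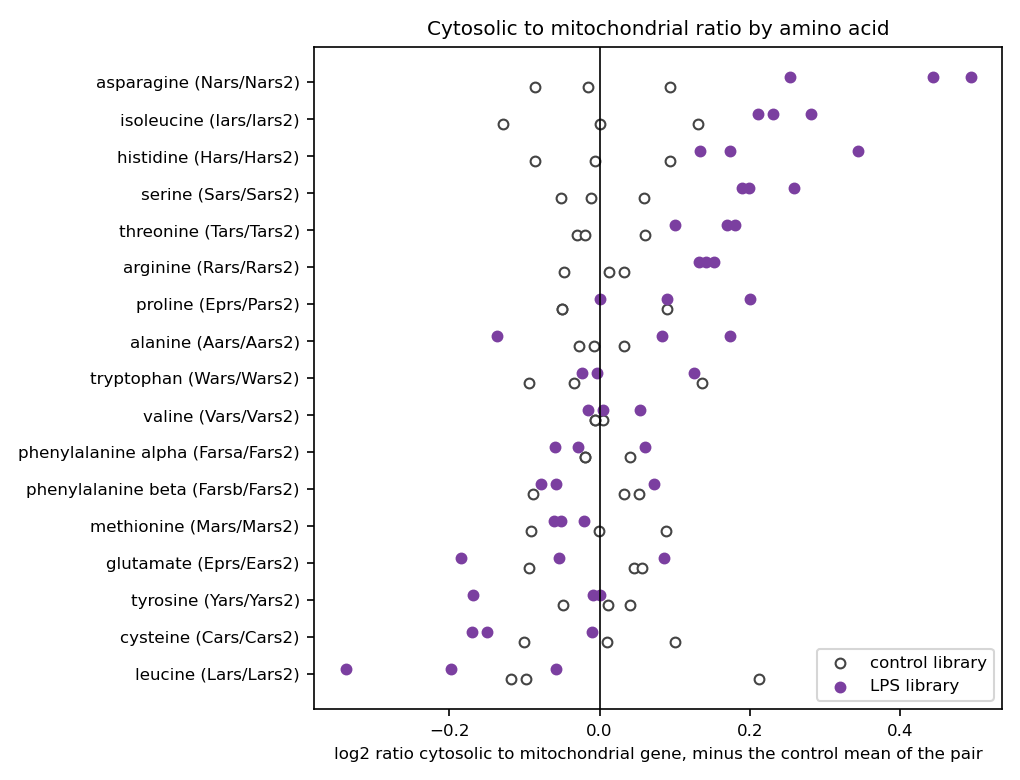
Log2 ratio of the cytosolic to the mitochondrial gene for each amino acid in each library, drawn relative to the control mean of the pair (open circles control, filled circles LPS). In 6 of the 17 comparisons every LPS library lies to the right of every control library, with asparagine farthest and leucine at the other end.

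Summed over the list, the 21 cytosolic genes took 5160, 5212 and 5144 CPM in control and 5440, 5409 and 5437 CPM with LPS, but the direction turned on library totals, with 5333, 5390 and 5331 in control and 5250, 5217 and 5274 with LPS per 1000000 counts. The mitochondrial genes took 1040.0, 954 and 1051 CPM in control and 1069, 1096 and 1034 CPM with LPS, and these overlapped. Lars2 alone is a large part of this sum. The mitochondrial share of synthetase reads, which needs no scaling, overlapped between groups, at 15.5% to 17.0% in control and 15.97% to 16.85% with LPS. Without Lars2 it was 11.3%, 10.95% and 11.4% in control and 10.6%, 10.5% and 10.4% with LPS. Lars2 had the largest rise of the mitochondrial genes and was left out after the data were seen. The lower share without it is therefore a description that depends on this choice. In bulk RNA, fewer cells of a kind and less RNA per cell cannot be told apart.

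Per kb of gene length, cytosolic genes stood well above mitochondrial ones in control cells, with medians of 47.3 and 7.41 CPM per kb. Nars was highest at 222 ± 3.34 CPM per kb (SD, n = 3), followed by Gars at 138 ± 2.68 and Hars at 117 ± 7.09, and these 3 did not overlap. Lars, at 97.2 ± 1.79 CPM per kb, and Rars, at 82.0 ± 1.97, came next. Ears2 was the lowest charging enzyme at 2.22 ± 0.0853 CPM per kb, with Wars2 at 2.74 ± 0.241 and Nars2 at 2.87 ± 0.139, the last pair lying within 1 SD of each other. Lars2, at 32.6 ± 3.77 CPM per kb, lay among the cytosolic genes beside Tars at 33.0 ± 1.07, and the next mitochondrial gene was Yars2 at 19.6 ± 0.681. The cytosolic Cars at 8.84 ± 0.317 and Tarsl2 at 4.49 ± 0.243 lay among the mitochondrial genes. The length is that of all annotated exons, which is 18102 bases for Eprs with a coding length of 4536. With coding length in its place the medians were 99.2 and 18.5 CPM per kb, and Nars remained highest and Ears2 lowest among the charging enzymes. Other places moved, with Lars2 from rank 16 to 6 of the 41 members and Lars from rank 4 to 11.

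**Figure D4:**
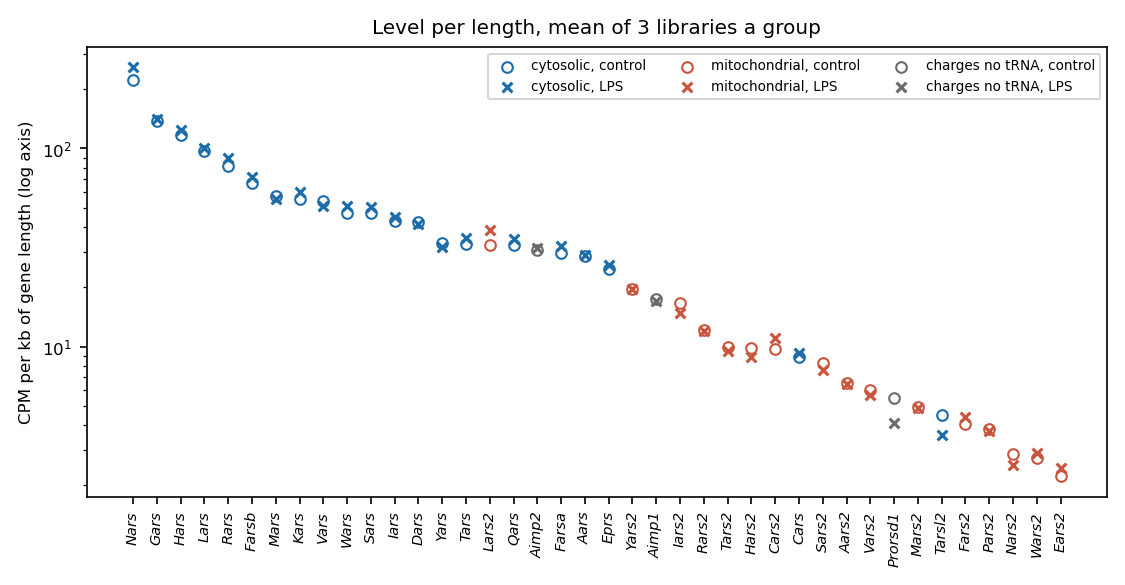
Mean CPM per kb of gene length in control (circles) and LPS (crosses) libraries for the 40 tested members, ordered by the control level on a log axis. Cytosolic genes from 222 CPM per kb for Nars lead the order, mitochondrial genes down to 2.22 for Ears2 close it, and circles and crosses of most genes nearly coincide.

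The members that charge no tRNA include the scaffold genes of the complex. Aimp1 was at 95.2, 96.6 and 99.0 CPM in control and 96.2, 92.4 and 96.2 CPM with LPS, and Aimp2 at 54.8, 49.2 and 49.2 CPM in control and 53.8, 51.3 and 50.2 CPM with LPS. The groups overlapped for both, with log2 fold changes of -0.03 and 0.02. On library totals Aimp1 was called lower (-0.13, edgeR adjusted p = 0.0339), and Aimp2 was at -0.08 and not called. Of the Aimp2 exon bases, 29.4% overlap Eif2ak1 on the opposite strand. Prorsd1, named for a domain it shares with prolyl-tRNA synthetase, had 12.4, 10.9 and 11.98 CPM in control and 7.60, 9.08 and 9.55 CPM with LPS, without overlap (log2 fold change -0.43 ± 0.12, edgeR adjusted p = 0.0148). Without LPS replicate 1, Prorsd1 was not called (-0.34, edgeR adjusted p = 0.0602), and on library totals it was at -0.52 (edgeR adjusted p = 0.00364). Aarsd1, named for its alanyl-tRNA synthetase domain, had between 1 and 8 counts in every library and was not tested.

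Related genes of translation were compared through lists of known genes. Of the 13 tested charging partners, which include the scaffold with Aimp1 and Aimp2, the mitochondrial amidotransferase and enzymes that proofread or release tRNA, 1 was higher and 1 was lower, where 18.7% and 15.7% of all tested genes were. The scaffold gene Eef1e1 rose from 87.1 ± 3.87 to 96.6 ± 1.52 CPM (SD, n = 3; log2 fold change 0.15, edgeR adjusted p = 0.0252), but was at 0.05 and not called on library totals. Qrsl1, a subunit of the amidotransferase that completes mitochondrial glutaminyl-tRNA, fell from 21.4 ± 1.59 to 16.6 ± 0.413 CPM (-0.36, edgeR adjusted p = 0.00620). Its partner subunits Gatb and Gatc, named outside the rule for named genes, were at -0.14 and -0.11 and not called. Gatb was called lower on library totals (-0.24, edgeR adjusted p = 0.00891), and Gatc was not (-0.21, edgeR adjusted p = 0.113). On library totals this list held 0 genes called higher and 5 lower, where 12.4% and 27.2% of all tested genes were.

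The elongation list holds genes named for translation elongation factors or their subunits, and Eef1akmt1, a methyltransferase that modifies one of these factors. Of 10 tested, 2 were higher and 0 lower, where 18.7% and 15.7% of all tested genes were. Eef1g was at a log2 fold change of 0.10 (edgeR adjusted p = 0.0217) and Eef2 at 0.09 (edgeR adjusted p = 0.0118), and on library totals both were between -0.01 and 0 and not called, with 4 others of the list called lower, where 27.2% of all tested genes were.

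The amino acid response list, the ATF4 programme to which many synthetase genes belong, reached larger log2 fold changes in single genes than the synthetases did. Of 24 tested genes, 9 were higher and 2 lower, where 18.7% and 15.7% of all tested genes were, at a median of 0.12 on the log2 scale, and on library totals 6 were higher and 4 lower, where 12.4% and 27.2% of all tested genes were. Slc7a11, which encodes the cystine and glutamate exchanger, rose from 34.2, 39.6 and 40.3 CPM to 183, 190.5 and 196 CPM (log2 fold change 2.32, edgeR adjusted p = 3.4e-13) and was the only DEG of the list. Cebpb, a C/EBP transcription factor, rose from 225 ± 9.17 to 445 ± 6.73 CPM (0.98, edgeR adjusted p = 1.22e-10). Aldh18a1 of proline synthesis fell by 0.19 on the log2 scale (edgeR adjusted p = 0.00371) and Shmt2 of mitochondrial serine metabolism from 555 ± 17.7 to 509 ± 2.69 CPM (edgeR adjusted p = 0.0169). Atf4 and the asparagine synthetase gene Asns, named outside the rule, were at 0.15 (edgeR adjusted p = 0.00955) and 0.10 (edgeR adjusted p = 0.0933), and neither was called on library totals.

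A further list held Eif2s1, which encodes a subunit of eIF2, the initiation factor whose phosphorylation raises ATF4 translation, and genes whose products act on eIF2 or its kinases. Of 14 tested, 6 were higher and 2 lower, where 18.7% and 15.7% of all tested genes were, and the other 6, Eif2s1 among them, were not called. On library totals 3 were higher and 2 lower, where 12.4% and 27.2% were. Eif2ak2, the interferon-induced kinase PKR, rose from 61.1 ± 3.23 to 188 ± 9.05 CPM (log2 fold change 1.62, edgeR adjusted p = 5.15e-12), and Ppp1r15a, which directs dephosphorylation of eIF2, rose by 0.52 (edgeR adjusted p = 1.68e-04). The kinase genes Eif2ak3 (PERK) and Eif2ak4 (GCN2, which senses uncharged tRNA) fell by 0.31 and 0.25 (edgeR adjusted p = 0.00204 and 0.0104).

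**Figure D5:**
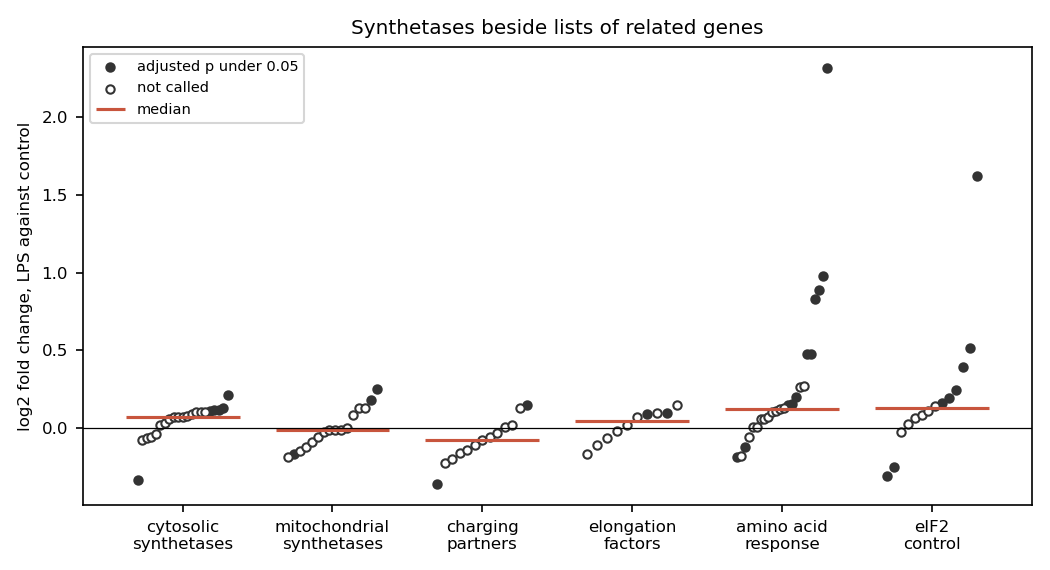
Log2 fold change, LPS against control, of each tested gene in 6 lists, with filled circles for an adjusted p under 0.05 and a line at the median. Both synthetase lists stay between -0.33 and 0.25, whereas the amino acid response list reaches 2.32 (Slc7a11) and the eIF2 list 1.62 (Eif2ak2).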

How the data were processed

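RNA-seq reads of 6 N9 libraries were counted per gene by the authors, and the deposited table holds read counts without normalization for 54532 genes. The submitters' processing notes list featureCounts 1.5.0-p3 and build mm10. The aligner, the annotation and the use of strand are not given in the sources used here. Another deposited table holds the authors' own comparison, made with DESeq2, with fold changes and p-values, and neither these nor its 18 further columns of values per sample were used. Library totals ran from 16363767 to 17956772 counts, and intervals cover these libraries only.

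LPS was tested against control on all genes with edgeR 4.0.16 in R 4.3.3 (glmQLFTest, TMM, filterByExpr, prior count 0.125, no replicate term), with Benjamini-Hochberg adjustment over 12296 genes. Standard errors are the log2 fold change divided by the square root of F, and 95% intervals use the degrees of freedom of that test. For a difference of 2 genes they treat the genes as independent. Log2 ratios used CPM with a pseudocount of 0.5 and exact permutation tests in scipy 1.17.1 under Python 3.11.15. Figures used matplotlib 3.10.9. The script was tested on simulated data, in which edgeR recovered 15 of 50 genes changed by 0.25 on the log2 scale and 39 of 50 changed by 0.5. The changed genes were not chosen for the depth of the synthetases. A gene that was not called may still have changed by such amounts. Alternatives were DESeq2 1.42.0, RLE size factors, no filter or a mean of 10 counts, a replicate block, a prior count of 2, a fit on protein-coding genes, fits leaving out each library, other compartment lists and coding length. Library totals, and leaving out control replicates 2 and 3 together, were added after the data were seen. So were the mitochondrial share without Lars2, the spread of Lars2 beside genes of similar count and the summary of genes with a CARE match.

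Compartments, complex members and pathway lists come from textbook knowledge. The members and lists were chosen with earlier results of these data known. Of the 42 genes found by the rule 1, and of the list of charging partners 1, are not reported here. Members were named by rule: up to 6 called per compartment and direction, then Wars, Gars, Kars, Eprs, the 3 pairs whose mean log2 ratio of CPM moved most and the extremes of level, with 2 genes per list and direction. Positions of 38 of the 41 members in the table equal those of GENCODE release M21 on GRCm38, which gave exon overlaps and coding lengths.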

Additional observations from a re-analysis of the deposited data

How the results depend on the processing

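Nars and Iars2 kept their direction and call in all 15 other fits, and Tarsl2 in 14. The fit without control replicates 2 and 3 has 1 control library, assumed to vary like the LPS libraries, so lost calls there also reflect fewer libraries. The cytosolic genes called higher, 5 as reported, were 2 with DESeq2 (14.2% of all genes tested), 2 with RLE size factors (18.1%), 2 without the filter on low counts (10.5%), 1 on library totals (12.4%) and 1 without control replicates 2 and 3 (13.0%), and from 1 to 2 with each library left out (14.7% to 17.2%). Those called lower, 1 as reported, were 5 on library totals (27.2%), 0 without control replicates 2 and 3 (8.89%), and 2 with compartments taken from the word in the description. The mitochondrial genes called higher, 2 as reported, were 1 with DESeq2, 0 on library totals, 0 without control replicates 2 and 3, and from 0 to 2 with each library left out, and those called lower, 1 as reported, were 5 on library totals. The cytosolic median of 0.074 was -0.024 on library totals and from 0.053 to 0.081 with each library left out. The mitochondrial median of -0.015 was -0.114 on library totals, 0.013 without control replicates 2 and 3, and from -0.031 (without control replicate 1) to 0.002 (without LPS replicate 2) with each library left out, so its sign is not settled. Library totals shift every gene by construction. The cause of the other differences was not tested.

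On library totals, values turned negative, none of them called, for Aars (-0.078), Cars (-0.025), Eprs (-0.025), Gars (-0.068), Hars (-0.024), Iars (-0.023), Lars (-0.041), Tars (-0.008), Wars2 (-0.015) and Aimp2 (-0.077). Without control replicates 2 and 3, direction changed for Hars (-0.022), Aars2 (0.025), Mars2 (0.002), Pars2 (0.167), Yars2 (0.025) and Aimp2 (-0.080), none called, and with protein-coding genes alone for Yars2 (0.000). With each library left out, uncalled genes near 0 changed direction: Gars (from -0.004 to 0.060), Aars2 (from -0.118 to 0.063), Pars2 (from -0.122 to 0.052), Rars2 (from -0.040 to 0.021), Yars2 (from -0.077 to 0.039), Aimp2 (from -0.011 to 0.064). The ratio comparisons without overlap, 6 higher and 0 lower, ranged from 6 to 8 and from 0 to 2 with each library left out. Groups without overlap stay so when a library is left out. These counts could therefore only stay or rise, and they are no measure of stability.

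The replicate block changed no call and gave 5 and 1 cytosolic and 2 and 1 mitochondrial genes called higher and lower (20% and 16.4% of all tested genes), and 7 ratios that were higher within every replicate number. These 7 hold the 6 ratios without overlap by construction. Deviations of samples with the same number correlated at 0.131, 0.048 and 0.005, so the numbers were not taken as pairs. The medians of level per length of 47.3 and 7.41 CPM per kb became 99.2 and 18.5 with coding length, used in place of the planned protein length, and 4 of 41 genes moved by 10 or more ranks. Standard errors reached 0.12 among mitochondrial genes and for Prorsd1, and Aarsd1 was too shallow to be tested.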
